A study of Mus musculus with 12 samples.

Results

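Plvap, Cav1, Cav2, Cavin1, Cavin2 and Mfsd2a are 6 of the 32285 genes in the deposited feature lists, and they were chosen by name as genes of caveolae, of the diaphragms that close endothelial openings, and of transport across the endothelium. Their counts of unique molecular identifiers (UMIs, 1 per captured transcript molecule) were read in 12 single-cell RNA libraries of mouse lymph node. All 6 symbols were found, with 1 gene identifier each. The mice were C57BL/6, 7 to 10 weeks old, and all carried floxed Atg12 (ATG12 fl/fl), an autophagy gene. They were positive or negative for CDH5 CreER, a tamoxifen-activated Cre recombinase under the endothelial Cdh5 promoter, and tamoxifen was given 5 times to every mouse per the labels' protocols. Oxazolone, a contact sensitiser, was put on the abdominal skin at 4%, with nodes collected at day 3 and at day 7, while vehicle mice received the acetone and olive oil solvent alone. Each combination of Cre label and treatment gave 1 endothelial library (CD31 fraction) and 1 immune library (CD45 fraction). How many mice went into a library is not given in the sources used here, so p-values measure the spread between these libraries. Atg12 UMIs were not lower where Cre was labelled present: in blood endothelial cells the 3 libraries labelled Cre-positive held 60.3 to 74.2 CPM of Atg12 (UMIs of the gene per 1000000 UMIs of the cells) and the 3 labelled Cre-negative 46.2 to 52.6. A tag at the 3-prime end of a transcript need not lie in the deleted part, so this does not check the deletion, and the groups are called by their labels. An added feature named mRFP is listed by 4 CD31 libraries: it gave 364, 930 and 342 UMIs in vehicle, day 3 and day 7 Cre-positive and 0 in day 7 Cre-negative. The other 8 libraries do not list it, so it has no value there, and what it marks is not given in the sources used here.

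Caveolae are flask-shaped pits of the plasma membrane that are dense in continuous capillary endothelium. Caveolin 1 (Cav1) builds the pit, caveolin 2 (Cav2) joins it in the same oligomers, and cavins coat the cytoplasmic face: Cavin1 is needed for pits to form, and Cavin2 shapes their curvature. Plvap forms the thin diaphragms across fenestrae, across the mouths of caveolae and across channels through the endothelium, and in the lymph node it is known for the sieve in the lining of the lymphatic sinus. Mfsd2a is a lysophospholipid transporter, best known from brain capillaries, where it holds caveolar transport down. High endothelial venules (HEVs) are the vessels through which lymphocytes enter the node from blood.

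The 2 caveolin and 2 cavin genes were all highest in capillary-like cells of the 5 named endothelial classes, so the sequence just before their start sites is shown, to let them be compared. Cav2 (chr6:17281185-17289115, plus strand) and Cav1 (chr6:17306335-17341452, plus strand) are neighbours, with 17220 bases from the end of Cav2 to the start of Cav1. Cavin1 lies on the minus strand of chromosome 11 (100956733 to 100970887), Cavin2 on the plus strand of chromosome 1 (51289126 to 51302960), Plvap on the minus strand of chromosome 8 (71497765 to 71511752) and Mfsd2a on the minus strand of chromosome 4 (122946850 to 122961188), all protein-coding genes in GRCm38. The 250 bases before the first RefSeq start site are given 5′ to 3′ in the direction of the gene (RefSeq, GRCm38.p6; its Cavin1 start lies inside the gene bounds given above, which come from GENCODE), with matches to any of 6 searched motifs, on either strand, in capitals. The windows are chr6:17280935-17281184 for Cav2, chr6:17306085-17306334 for Cav1, chr11:100970618-100970867 for Cavin1 and chr1:51288876-51289125 for Cavin2.
Cav2: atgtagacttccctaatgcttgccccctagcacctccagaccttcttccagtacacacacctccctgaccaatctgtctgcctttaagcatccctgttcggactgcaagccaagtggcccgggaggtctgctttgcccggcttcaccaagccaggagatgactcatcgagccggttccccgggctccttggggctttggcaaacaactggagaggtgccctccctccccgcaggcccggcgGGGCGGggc
Cav1: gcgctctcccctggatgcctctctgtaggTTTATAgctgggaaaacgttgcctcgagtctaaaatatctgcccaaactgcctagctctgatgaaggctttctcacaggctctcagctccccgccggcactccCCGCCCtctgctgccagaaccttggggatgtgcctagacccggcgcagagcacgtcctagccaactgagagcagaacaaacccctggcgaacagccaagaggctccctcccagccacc
Cavin1: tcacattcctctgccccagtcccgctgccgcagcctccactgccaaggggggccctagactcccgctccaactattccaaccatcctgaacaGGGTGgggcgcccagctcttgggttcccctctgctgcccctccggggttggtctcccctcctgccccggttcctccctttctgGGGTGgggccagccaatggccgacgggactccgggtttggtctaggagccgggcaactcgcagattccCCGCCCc
Cavin2: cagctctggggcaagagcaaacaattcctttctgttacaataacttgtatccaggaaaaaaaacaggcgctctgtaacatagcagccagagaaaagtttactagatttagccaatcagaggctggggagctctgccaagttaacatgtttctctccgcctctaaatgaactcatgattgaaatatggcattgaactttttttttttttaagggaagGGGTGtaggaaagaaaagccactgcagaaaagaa
The capitals mark GGGCGG, the letters of the GC box, once each in Cav2, Cav1 and Cavin1, TATAAA, the letters of the TATA box, once in Cav1, and CACCC (a letter group read by KLF factors) at 2 places in Cavin1 and 1 in Cavin2, some of them as the reverse complement. The search also covered AGGAAG, the core read by ETS factors of the endothelium. It further covered AGGTCA, letters read by nuclear receptors. The last motif was GTAAACA, read by forkhead factors, and none of these 3 occurs in the windows above. Of 32851 RefSeq promoter windows of the same length, 32.7% hold the GC box letters, 12.4% those of the TATA box, 52.0% the KLF group, 29.5% the ETS core, 14% the nuclear receptor letters and 3.17% the forkhead letters. The Mfsd2a window (chr4:122961189-122961438, minus strand) holds the nuclear receptor letters once. These are matches of letters, and no match was shared by all 4 caveolin and cavin windows.

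The libraries held 36724887 to 76186801 UMIs each, and 89054 cells were kept, 46508 of them in the CD31 fraction, at a median of 3433 to 6193.5 UMIs per cell. CD31 cells were clustered without the 6 members and without the listed genes of their pathways, and clusters were named from marker panels: capillary-like (6315 cells), HEV-like (2409), arterial-like (2787), venous-like (270) and lymphatic-like (4776). A further 10973 blood endothelial cells fitted no such panel. Capillary-like cells held 12645 to 15391 CPM of the 7-gene capillary panel, against 425.5 to 540.4 CPM of the arterial and 4.92 to 15.4 CPM of the adipocyte panel. HEV-like cells held 20717 to 93323 CPM of the HEV panel, and the arterial-like cells also held 2327 to 4346 CPM of the capillary panel, beside 3412 to 4044 CPM of their own. Venous-like cells held 4566 to 6152 CPM of the venous panel and 1343 to 4919 of the HEV panel. Lymphatic-like cells held 1947 to 2756 CPM of the lymphatic panel but 2826 to 5103 of the HEV panel. Panel sums can rest on few abundant genes, and the HEV panel includes Ccl21a. In the scores used for naming, the lymphatic panel was highest in each lymphatic-like cluster. The library labelled day 3 Cre-positive stands apart: an unnamed cluster of shallow cells made up 22.6% of its kept cells, and the cells removed from it as doublets had a lower median of UMIs (2203) than those kept (3433). In vehicle Cre-negative as well the removed cells were shallower than those kept (medians of 3932.5 and 4325 UMIs), automatic doublet calls were 0, and unnamed cells made up 6.78% of those kept. No pair of libraries shared over 0.38% of its cell barcodes.

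Among the 5 named classes, Plvap and the caveola genes were highest in opposite vessel classes. Capillary-like cells had the highest Cav1, Cav2, Cavin1 and Cavin2 levels of the 5 and the lowest Plvap level. Venous-like and HEV-like cells had the highest Plvap levels of the 5, and the HEV-like cells also the lowest cavin levels. The 10973 blood endothelial cells outside these classes averaged 2201 CPM of Plvap, above the 2046 of venous-like cells, with overlapping ranges. Mfsd2a was almost absent from all 5 classes. The plot of levels by class shows this split in each of the 6 CD31 libraries.

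**Figure D1:**
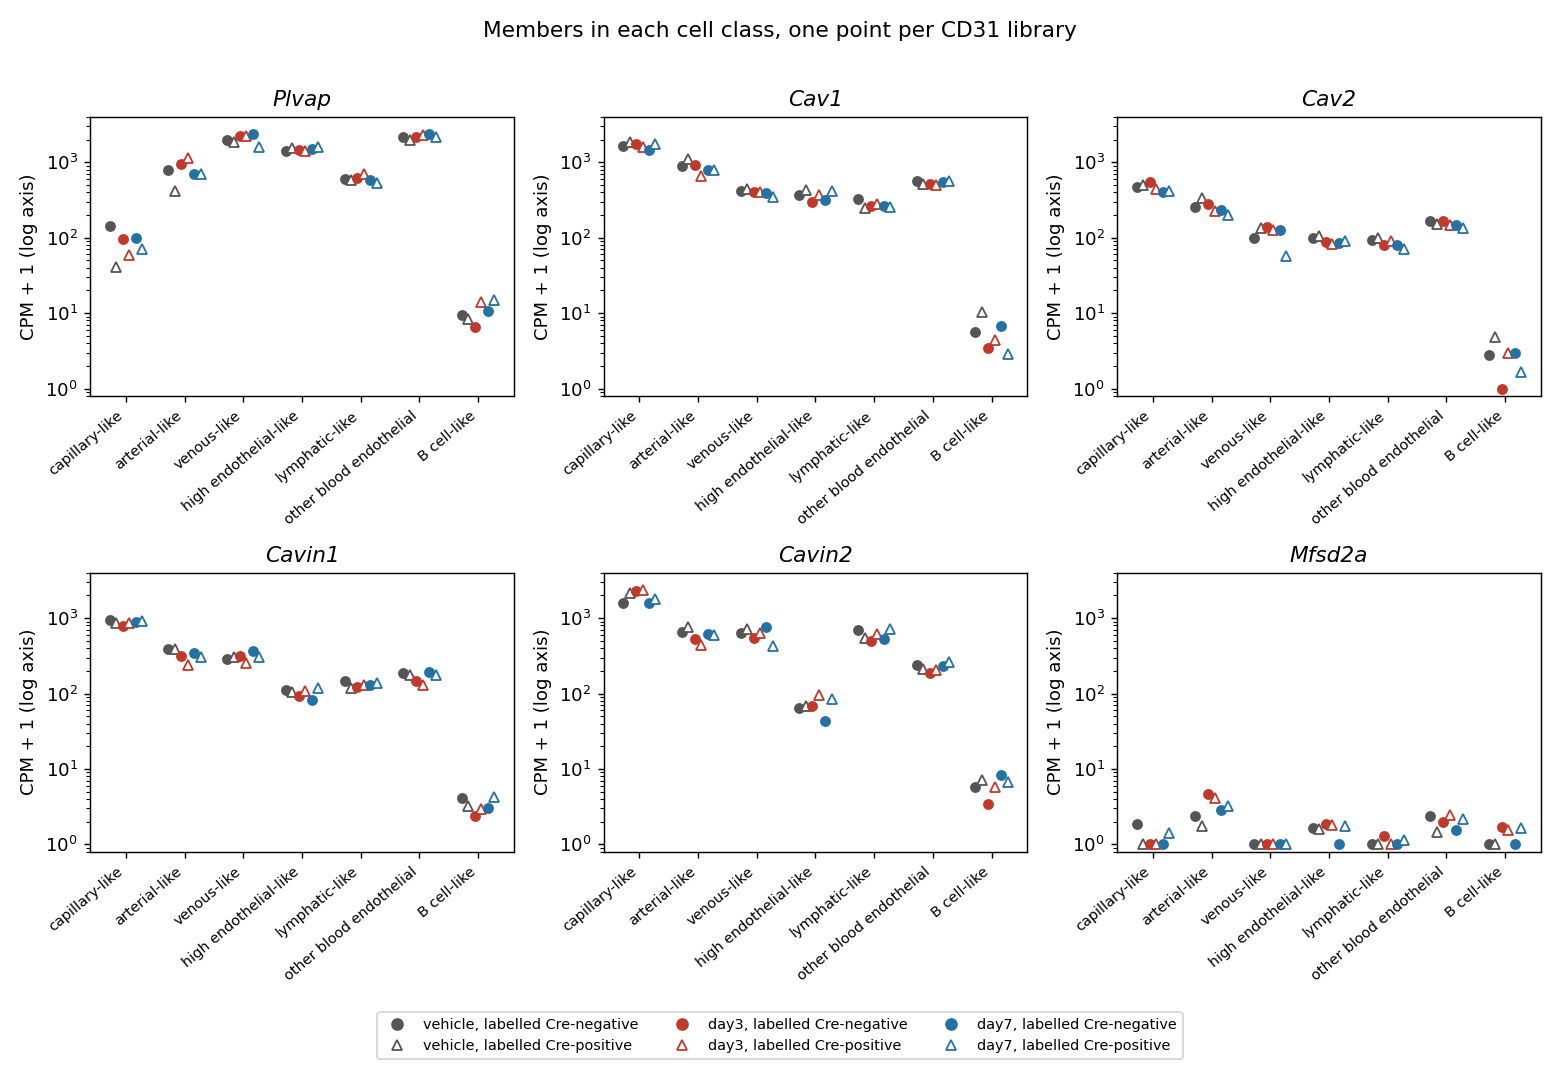
Level of each of the 6 genes by cell class, as CPM plus 1 on a log axis, with 1 point for each CD31 library. Plvap points of the capillary-like class (39.5 to 140.4 CPM) lie below those of every other endothelial class, whereas Cav1, Cav2, Cavin1 and Cavin2 are highest there.

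Plvap, the diaphragm gene, stood in capillary-like cells at 140.4 CPM in vehicle Cre-negative, 39.5 in vehicle Cre-positive, 95.7 in day 3 Cre-negative, 58.1 in day 3 Cre-positive, 96.9 in day 7 Cre-negative and 69.0 in day 7 Cre-positive. In the same order of libraries, HEV-like cells held 1427, 1570, 1463, 1423, 1495 and 1605 CPM of Plvap. Venous-like cells held 1977, 1882, 2257, 2213, 2357 and 1591 CPM. The highest capillary-like library thus lay below the lowest library of both venous classes. Arterial-like cells held 800.1, 420.3, 935.1, 1129, 702.6 and 693.7 CPM of Plvap. Lymphatic-like cells held 588.0 to 625.2 CPM in the vehicle, day 3 Cre-negative and day 7 Cre-negative libraries, 700.1 in day 3 Cre-positive and 525.8 in day 7 Cre-positive. The means over the 6 libraries were 2046 ± 286 CPM (SD, n = 6) in venous-like, 1497 ± 75.4 in HEV-like, 780.2 ± 241 in arterial-like, 603.4 ± 57.3 in lymphatic-like and 83.3 ± 35.6 in capillary-like cells. Ranges of neighbours in that order overlapped for venous-like and HEV-like cells and for arterial-like and lymphatic-like cells, and did not overlap at the other 2 steps.

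Cav1, the structural caveolin, stood in capillary-like cells at 1625, 1875, 1762, 1615, 1471 and 1769 CPM in that order of libraries. Arterial-like cells came next, with 884, 1091, 916, 663, 787 and 782 CPM of Cav1, and no library of theirs reached the lowest capillary-like one. Cav1 averaged 400.1 ± 30.5 CPM (SD, n = 6) in venous-like, 366.9 ± 54.1 in HEV-like and 271.5 ± 30.1 in lymphatic-like cells. Neighbours among these 3 classes overlapped, and all lay below every arterial-like library. Cav2, its partner, followed the same order, from 397.6 to 544.0 CPM in capillary-like and 201.0 to 339.0 in arterial-like cells down to 69.9 to 98.8 in lymphatic-like cells.

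Cavin1, the coat protein needed for caveolae, stood at 786.7 to 935.7 CPM in capillary-like cells and 80.3 to 118.5 in HEV-like cells, the lowest of the 5 classes. Arterial-like (329.6 ± 58.3 CPM, SD, n = 6) and venous-like cells (306.0 ± 38.4) could not be separated for Cavin1, each being higher in 3 of 6 libraries. Cavin2, the curvature-shaping cavin, stood in capillary-like cells at 1570, 2119, 2260, 2369, 1599 and 1774 CPM. HEV-like cells held 62.8, 68.1, 67.8, 93.6, 42.1 and 83.4 CPM of Cavin2, far below every library of the other 4 classes. Venous-like, arterial-like and lymphatic-like cells averaged 616.6, 598.3 and 594.0 CPM of Cavin2 and overlapped throughout.

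The classes were tested within libraries by edgeR's quasi-likelihood test with library as a block, over 12427 genes, with Benjamini-Hochberg adjustment. Fitted differences use trimmed-mean scaling, so they can depart from ratios of CPM where a class spends many UMIs on a few genes, as HEV-like cells do. Between capillary-like and HEV-like cells all 5 tested members differed, where 65.9% of all genes were called: 4 were higher (32.7% of genes) and 1 lower (33.2%). Plvap was 23.3-fold lower in capillary-like cells (log2 difference −4.54, SE 0.20, adjusted p = 5.209e-19), Cavin2 22.7-fold higher (4.50, SE 0.17, adjusted p = 4.805e-21) and Cavin1 6.84-fold higher (2.77, SE 0.10). Cav1 and Cav2 were 3.68-fold and 4.03-fold higher. The Plvap difference was −6.18 with free RNA subtracted and −3.41 without doublet removal. Cells were clustered anew without doublet removal, and the HEV-like class then held 3734 cells, 2353 of them from the main class. Free RNA was subtracted at an assumed 10% of each class sum, in the profile of barcodes of 10 to 100 UMIs. Few or no Plvap UMIs then remain in some capillary-like sums, so sizes under that setting rest on low counts. The 10% was not estimated from the data. B cell-like cells of the CD31 fraction, which should lack Plvap, held 9.63 CPM of it, against 465.8 to 786.1 in free RNA. At 10%, free RNA alone would have given those cells more Plvap than they held, so the setting is too large for them. The share of free RNA in capillary-like cells was not tested.

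Against venous-like cells, where 34.7% of genes were called (18.3% higher and 16.4% lower), Plvap was again lower in capillary-like cells (log2 difference −4.62, SE 0.21; −6.20 with free RNA subtracted) and the 4 caveola genes higher by 1.51 to 2.09. Against arterial-like cells (36.8% of genes called, 17.1% higher and 19.7% lower) Plvap differed by −3.22 (SE 0.19; −4.70 with free RNA subtracted) on the log2 scale and the 4 caveola genes by 0.89 to 1.72. Against lymphatic-like cells (64.1% called, 30.6% higher and 33.4% lower) the differences were −2.85 (SE 0.19; −4.35 with free RNA subtracted and −1.88 without doublet removal) for Plvap and 1.75 to 2.78 for the others. All of these had edgeR adjusted p-values of 2.129e-09 or less. In an exact two-sided sign-flip permutation test of the 6 within-library ratios, each of these differences gave p = 0.03125, the smallest that 6 libraries allow (adjusted over 25 tests, p = 0.0355).

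HEV-like and venous-like cells, the neighbouring parts of the venous tree, differed in the cavins and not detectably in the other 3 members (34.6% of genes called, 20.4% higher and 14.2% lower). Cavin2 was 7.20-fold lower in HEV-like cells (log2 difference −2.85, SE 0.17, edgeR adjusted p = 7.721e-15) and Cavin1 2.40-fold lower (−1.26, SE 0.11, adjusted p = 6.903e-11). Plvap differed by −0.08 (interval of 2 SE, −0.43 to 0.27; edgeR adjusted p = 0.770), Cav1 by 0.21 (−0.01 to 0.43; 0.144) and Cav2 by −0.02 (−0.28 to 0.25; 0.933). Plain CPM put Plvap lower in HEV-like cells in 5 of 6 libraries (mean log2 ratio −0.44, exact permutation p = 0.0625), so the size of a Plvap difference between these classes depends on the scaling. It also turned the sign of Cav1 (mean log2 ratio −0.13), so no direction is given for Cav1 between them.

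The share of cells with at least 1 Plvap UMI was 95.6% to 99.2% in HEV-like, 87.0% to 98.5% in venous-like, 52.6% to 78.7% in arterial-like and 73.0% to 90.0% in lymphatic-like cells. In capillary-like cells it was 6.72% to 17.2%, at median depths of 1884 to 2814 UMIs per cell, and in B cell-like cells of the same fraction, which should lack the gene, 1.93% to 4.06% at 2930 to 3624 UMIs. With every cell thinned to 1000 UMIs the shares were 2.69% to 8.11% in capillary-like, 0.603% to 1.16% in B cell-like and 69.7% to 79.2% in HEV-like cells. Thinned Cav1 shares ran the other way, 72.5% to 79.7% in capillary-like and 26.9% to 34.6% in HEV-like cells, with 0.116% to 0.521% in B cell-like cells. Barcodes of 10 to 100 UMIs, taken as free RNA, held 465.8 to 786.1 CPM of Plvap in the CD31 libraries, and the part of free RNA in the capillary-like Plvap level was not tested beyond subtracting it.

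The 6315 capillary-like cells fell into 2 clusters that carried the same pattern. Cluster 1, led by Tcf15, Fabp4 and Cdkn1c with hemoglobin genes among its leading genes, held 91.9 CPM of Plvap, 1711 of Cav1 and 2173 of Cavin2. Cluster 8, led by Slit3, Lnx1 and Kcnc2, held 78.1 CPM of Plvap, 1713 of Cav1 and 1714 of Cavin2. Of the blood endothelial cells outside the named classes, the clusters led by Penk held 2825 and 2710 CPM of Plvap, above the 2120 pooled over venous-like cells. Those led by Prnd and Nav3 held 1976 and 1518, below it. Their Cav1 levels were 463.5 to 562.9 CPM and their Cavin2 levels 187.8 to 262.0 CPM.

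**Figure D2:**
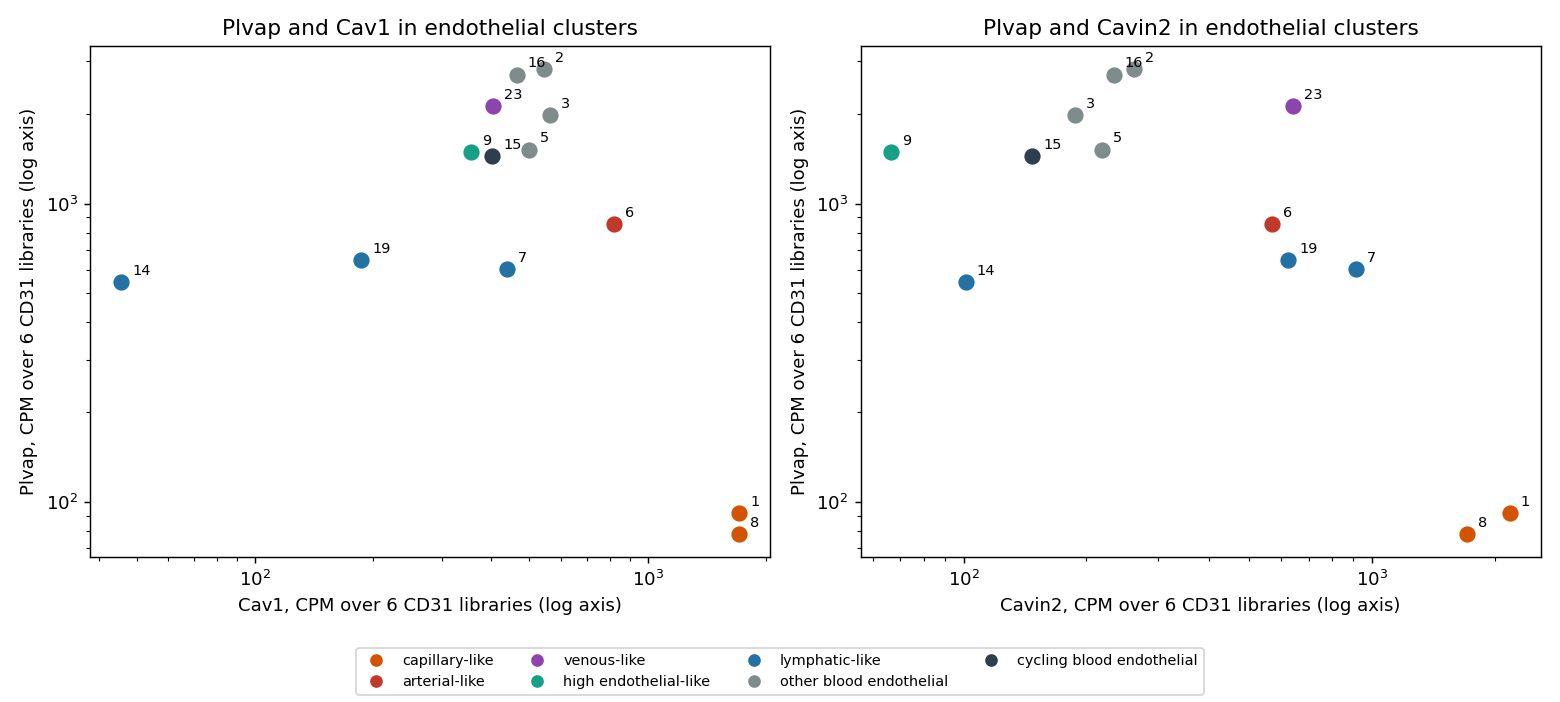
Plvap level against Cav1 level and against Cavin2 level in the endothelial clusters, as CPM pooled over the 6 CD31 libraries, with 1 point for each cluster. The 2 capillary-like clusters sit at low Plvap (91.9 and 78.1 CPM) and high Cav1 (1711 and 1713 CPM).

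The lymphatic-like class was mixed for caveola genes and even for Plvap. Its Ackr4-led cluster held 437.7 CPM of Cav1 and 913.8 of Cavin2, its Lyve1 and Reln cluster 186.5 and 623.7, and its Madcam1 and Ccl20 cluster 45.6 and 101.4, while Plvap was 604.7, 646.6 and 544.9 CPM in the same order. Ackr4 is a chemokine-scavenging receptor, and Madcam1 an adhesion molecule for lymphocytes. Madcam1-led cells had no lymphatic panel gene among their 10 leading genes. Cav1 in each of the 6 libraries was 36.0 to 62.2 CPM in that cluster and 355.9 to 515.7 in the Ackr4-led one, with no overlap.

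Outside the endothelium, the caveola genes were also found in wall cells. The 277 pericyte-like and smooth muscle-like cells held 308.8 CPM of Cav1, 422.5 of Cavin1 and 116.2 of Cavin2, and 220.2 of Plvap. Free RNA of the CD31 libraries held 117.8 to 351.1 CPM of Cavin2 and 465.8 to 786.1 of Plvap, all above the levels pooled over these wall cells. The 8627 fibroblast-like cells of the CD45 fraction held 129.1 CPM of Cavin1 and 51.6 of Cav1, and their Pi16-led cluster 396.5 CPM of Cavin1. B cell-like and T cell-like cells of the CD31 fraction held 4.54 and 4.49 CPM of Cav1 and 9.63 and 8.72 CPM of Plvap. Pericyte and smooth muscle markers summed to 32.5 to 114.6 CPM in capillary-like cells.

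Mfsd2a, the transporter that limits caveolar transport in brain, gave 4 UMIs in the 6315 capillary-like cells (0.236 CPM, exact 95% interval 0.064 to 0.604). Intervals of this kind cover counting error only. Arterial-like cells gave 28 UMIs (2.36 CPM, 1.57 to 3.41), HEV-like cells 14 (0.534 CPM) and lymphatic-like cells 2. Venous-like cells gave 0, which allows a level of up to 2.07 CPM. Free RNA of the CD31 libraries held 0.464 to 2.06 CPM of Mfsd2a, a range that the capillary-like and lymphatic-like levels lie below, the HEV-like level lies within and the arterial-like level lies just above. Mfsd2a passed the count filter in the sum of all blood endothelial cells alone, so the 5 classes could not be tested for it. Leukocyte clusters reached higher levels, with 5.41 CPM in cycling T cell-like cells of the CD45 fraction and 4.73 in those of the CD31 fraction.

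Over the 30 class sums (5 classes in 6 libraries), Cav1 and Cav2 were alike with a Pearson r of 0.97 of log2(CPM + 1), Cav1 and Cavin1 with 0.89, and Cavin1 and Cavin2 with 0.83, Cav2 and Cavin2 with 0.66 and Cav1 and Cavin2 with 0.62, while Plvap and Cav1 gave −0.77. These describe class differences, since sums of 1 library share its depth and sums of 1 class its cells. Among 7006 genes, the nearest to Plvap were Il13ra1 (r 0.96), Sulf1 (0.95) and Csf2rb2 (0.95). Nearest to Cav1 were Sept4, Cdh5 and Ctnnbip1 (0.97, 0.97 and 0.96), and nearest to Cav2 were Tcf15, Gpihbp1 and Aqp7 (0.98, 0.96 and 0.95). For Cavin1 they were Fabp4, Pik3r6 and Dmd (0.99, 0.97 and 0.97), for Cavin2 Cd36, Bmp6 and Sema6a (0.97, 0.95 and 0.94), and for Mfsd2a Ms4a6d, Nck1 and Prdx4 (0.87, 0.87 and 0.86). The Mfsd2a values rest on few UMIs: 28 in arterial-like, 14 in HEV-like, 4 in capillary-like, 2 in lymphatic-like and 0 in venous-like cells. Gpihbp1, Tcf15, Aqp7 and Cd36 are also genes of the capillary panel that named the class.

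The remaining genes of caveolae differed in both directions. Of 13 listed genes of the caveola coat and neck, 8 were tested, and against HEV-like cells 3 were higher and 5 lower in capillary-like cells, where 32.7% of all genes were higher and 33.2% lower (list median −0.53 on the log2 scale, all genes 0.03). Ehd2, the ATPase that holds the caveola neck at the membrane, was among the higher ones: it averaged 545.0 CPM in capillary-like, 364.4 in arterial-like, 212.5 in venous-like, 144.8 in lymphatic-like and 112.7 in HEV-like cells. Its relatives Ehd3 and Ehd4, which act on other membrane routes as well, ran against it, with 8.54 and 38.2 CPM in capillary-like cells against 296.5 and 302.8 in HEV-like cells. Ehd4 reached 1167 CPM in venous-like cells. Cavin3, a further cavin, was 0.96 lower on the log2 scale in capillary-like than in arterial-like cells (SE 0.11, edgeR adjusted p = 6.27e-09).

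Of 15 tested genes of transcytosis and vesicle fusion (of 17 listed), 5 were higher and 4 lower in capillary-like than HEV-like cells, near the shares of all genes (32.7% and 33.2%). Against lymphatic-like cells 9 were higher and 3 lower, where 30.6% and 33.4% of all genes were (list medians 0.11 and 0.41 on the log2 scale, all genes 0.03 and 0.00). Fcgrt, the neonatal Fc receptor that carries IgG and albumin, averaged 192.3 CPM in capillary-like and 35.7 in HEV-like cells. Scarb1, a lipoprotein receptor, averaged 359.3 CPM in capillary-like and 22.0 in lymphatic-like cells. Acvrl1, a receptor of the BMP family that also takes part in lipoprotein transport, was 1.68 higher on the log2 scale in capillary-like than lymphatic-like cells (SE 0.10, edgeR adjusted p = 4.79e-16). Dnm3, a dynamin that cuts vesicles from the membrane, was highest in venous-like cells at 1067 CPM.

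Of the 13 clathrin-route genes, all tested, 5 were higher and 3 lower in capillary-like than HEV-like cells, beside 32.7% and 33.2% of all genes (list median 0.07, all genes 0.03). Dab2, a clathrin adaptor, averaged 597.4 CPM in lymphatic-like and 83.1 in capillary-like cells, and Epn2, an epsin, 181.3 in capillary-like and 38.0 in HEV-like cells. Of 14 genes of the barrier programme known from brain endothelium with Mfsd2a, 10 were tested, and 3 were higher and 6 lower in capillary-like than HEV-like cells, against the same shares of all genes (list median −0.93, all genes 0.03). Tjp1, a tight junction scaffold, was highest in capillary-like cells (584.4 CPM, against 166.2 in HEV-like), while Slc2a1, the glucose transporter, averaged 10.3 and 80.0 CPM and Apcdd1, a Wnt inhibitor, 0.604 and 44.1 CPM in those classes. Abcb1a, an efflux pump, averaged 112.4 CPM in capillary-like and 2.45 in lymphatic-like cells.

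The design also asks whether oxazolone and the Cre label moved these genes within a class. Each combination is 1 library, so label and treatment were fitted together as additive terms with 2 residual degrees of freedom, and an interaction counts as error. Over the 5 classes and 3 contrasts, Plvap in arterial-like cells at day 3 was the single member call. The plot of fitted responses shows the other members with their error.

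**Figure D3:**
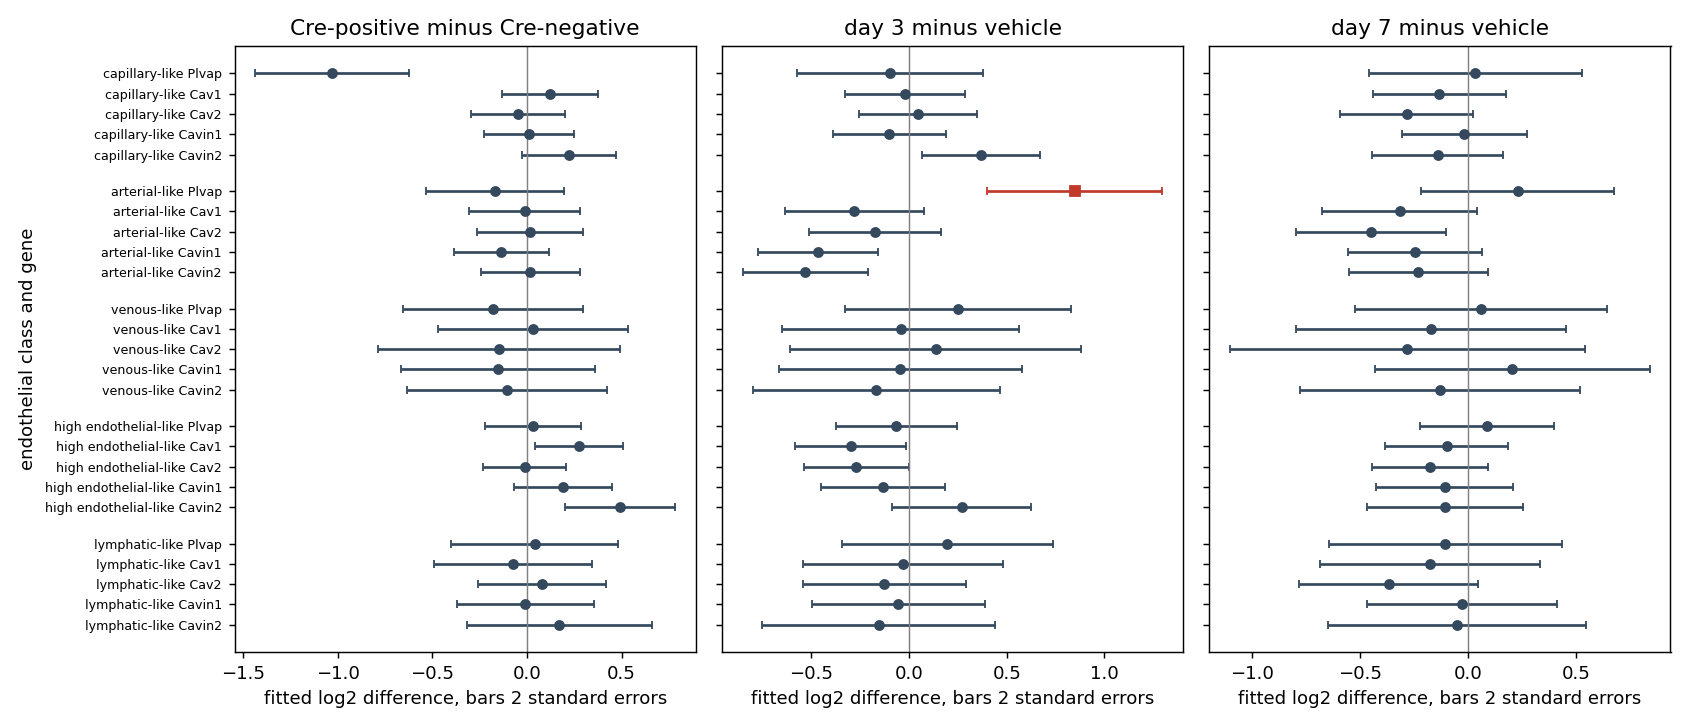
Fitted log2 differences with bars of 2 SE for the members in each class, for Cre-positive minus Cre-negative, day 3 minus vehicle and day 7 minus vehicle. A red square marks an adjusted p under 0.05, reached by Plvap in arterial-like cells at day 3 (0.85).

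Plvap rose in arterial-like cells at day 3, from 800.1 and 420.3 CPM in the vehicle libraries to 935.1 and 1129 CPM, and stood at 702.6 and 693.7 CPM at day 7. Both day 3 libraries were above both vehicle libraries, and the 2 vehicle libraries differed by more than the 2 of day 3. The fitted log2 difference was 0.85 (SE 0.22, edgeR adjusted p = 0.0364), and 4.83% of 10160 genes were called. It was not called by DESeq2 (adjusted p = 0.410), without doublet removal (0.24, edgeR adjusted p = 0.375), after subtraction of free RNA (0.91, edgeR adjusted p = 0.113), or without the library day 3 Cre-positive (0.46, 0.706), day 3 Cre-negative (1.26, 0.0788) or vehicle Cre-positive (0.33, 0.313). Without the library vehicle Cre-negative, 5 members were called at day 3 and 3 at day 7, where 1310 and 298 genes were called against 491 and 0 with it.

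The make-up of the arterial-like class differed between libraries. At a finer clustering (resolution 1.5) it held 3 sub-clusters. Of the 2787 arterial-like cells, 2105 (75.5%) kept that name there, and the sub-cluster led by Col8a1 did not. With members kept for clustering 75.0% of the cells kept it, and without doublet removal 75.6%. The arterial-like class without doublet removal held 4978 cells, only 2107 of them from the main class, so its values describe a different set of cells. The sub-cluster led by Stmn2, Igfbp3 and Gja4 was rich in Plvap (844.9 to 1379 CPM). That led by Col8a1, Aqp7 and Trpm3 was poor (215.1 to 331.5 CPM), and that led by Mgp, Vegfc and Efna5 lay between (219.4 to 751.2 CPM). The Plvap-rich sub-cluster made up 42.9% and 31.3% of arterial-like cells in the vehicle libraries, 37.5% and 59.0% at day 3 and 45.6% and 53.0% at day 7, Cre-negative first. The Plvap-poor one made up 26.6%, 37.9%, 38.2%, 13%, 19.1% and 19.5% in that order of libraries, so the day 3 Cre-positive library held the fewest. The Plvap-rich share was smallest in vehicle Cre-positive, the library with the lowest class level of Plvap (420.3 CPM). It was largest in day 3 Cre-positive, the library with the highest (1129 CPM). In day 3 Cre-negative it lay between those of the vehicle libraries. Both day 7 shares were above those of vehicle, at Plvap levels below that of vehicle Cre-negative and above that of vehicle Cre-positive. With the 3 sub-clusters given equal weight, Plvap stood at 689.9 and 426.5 CPM in vehicle and 791.6 and 815.4 CPM at day 3, a log2 ratio of means of 0.53 against 0.76 without the weighting. Within the Mgp-led sub-cluster Plvap was 570.5 and 219.4 CPM in vehicle and 751.2 and 746.4 at day 3. The part of the make-up in the fitted difference was not tested beyond these values.

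**Figure D4:**
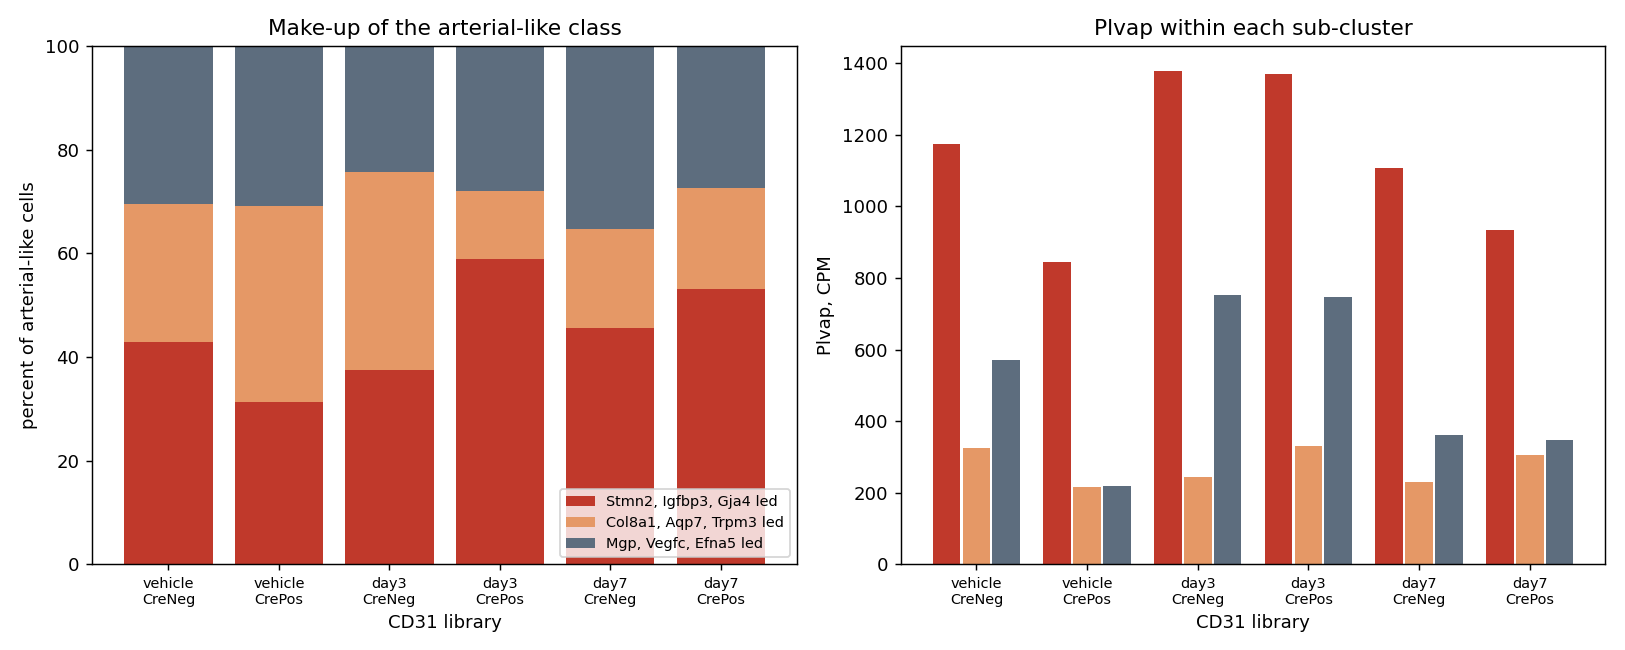
Share of arterial-like cells in each of the 3 sub-clusters by library, in percent, and Plvap level within each sub-cluster, in CPM. The Stmn2-led sub-cluster holds the most Plvap in every library, and its share is largest in day 3 Cre-positive (59.0%).

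Cavin2 and Cavin1 in arterial-like cells had fitted day 3 differences of −0.53 (SE 0.16, edgeR adjusted p = 0.0683) and −0.47 (SE 0.15, 0.090), which missed the threshold. Cavin2 stood there at 662.8 and 766.1 CPM in vehicle and 523.5 and 432.3 at day 3, and Cavin1 at 385.9 and 392.9 against 311.5 and 236.0, in neither case with overlap. Within sub-clusters, Cavin2 stood at 437.8 and 342.7 CPM in vehicle and 212.0 and 293.8 at day 3 in the Stmn2-led one and at 696.2 and 794.8 against 539.9 and 562.9 in the Mgp-led one. In the Col8a1-led one, the richest in Cavin2, it stood at 1073 and 1103 against 1121 and 1191 CPM, with no fall. The capillary panel of arterial-like cells summed to 3464 and 4346 CPM in vehicle and 3292 and 2327 at day 3. The part of the make-up in the Cavin2 and Cavin1 differences was not tested. Of the listed pathway genes tested in the same comparison, 2 of 8 of the caveola coat and neck were called higher, 1 of 14 of transcytosis higher and 1 lower, 0 of 13 of the clathrin route and 1 of 7 of the barrier list lower, where 4.83% of all genes were called. Among these, Ehd4 (0.63) and Flna (0.58), which links caveolae to actin, rose, and Scarb1 (−0.65) and Spock2 (−1.41), a matrix proteoglycan gene, fell (edgeR adjusted p = 0.0406, 0.0428, 0.0185 and 0.0155). Without the library day 3 Cre-positive 0 genes were called, so none of these calls held there. At day 7, 0 of 5 members and 0% of genes were called in arterial-like cells, and for the label 0 of 5 members and 0.0394% of genes. At an unadjusted p under 0.05, 3 members passed at day 3 (19.6% of all genes did), 1 at day 7 (Cav2, −0.45; 3.11% of genes) and 0 for the label (3.02% of genes).

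At each of the 3 times the Cre-positive library had less Plvap in capillary-like cells than the Cre-negative one, but the difference missed the threshold. The log2 ratio of CPM was −1.83 in vehicle (counting interval −2.13 to −1.54), −0.72 at day 3 (−1.02 to −0.43) and −0.49 at day 7 (−0.83 to −0.15). The additive fit gave −1.03 (SE 0.20, edgeR adjusted p = 0.107), where 0.084% of 10709 genes were called and 0 of 5 members. It was called in cluster 1 alone (−1.30, edgeR adjusted p = 0.0368), in cells of at least 2000 UMIs (−1.02, edgeR adjusted p = 0.00620), with no filter on low counts (−1.04) and when either day 7 library or both were left out (−1.28). Without either vehicle library or both the difference shrank to −0.60 and was not called (Plvap, edgeR adjusted p = 0.239 to 0.265). When 1 library of a time is left out, the treatment term takes up the other, which no longer informs the label difference. The day 7 cases are thus in effect 1 alternative, and so are the vehicle cases. Without day 7 the number of members called for the label was 1, and the number of all genes called moved with left-out libraries as well. The difference was −3.28 with free RNA subtracted and −0.58 without doublet removal, called in neither case (edgeR adjusted p = 0.649 and 0.499). The subtraction took out all capillary-like Plvap in vehicle Cre-positive and almost all in day 3 Cre-positive, so the −3.28 rests on few counts. Markers of other vessels and of wall cells also differed between these capillary-like cells. Their HEV panel sums were 163.3 against 115.6 CPM in vehicle, 266.8 against 103.7 at day 3 and 327.7 against 90.3 at day 7, Cre-negative first. Their pericyte and smooth muscle panel sums were 43.1 against 114.6, 32.5 against 52.7 and 43.0 against 97.2 CPM. The part of such cells or RNA in the Plvap difference was not tested.

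In 5 of 6 libraries few cells carried a large part of the capillary-like Plvap UMIs. Cells with 5 or more Plvap UMIs numbered 25 of 1147, 3 of 1041, 20 of 1741, 1 of 1061, 7 of 556 and 7 of 769 in the 6 libraries, and they held 45.8%, 32.5%, 38.5%, 3.85%, 33.1% and 37.3% of the class's Plvap UMIs, in the order of libraries above. In the other cells Plvap stood at 78.8 and 26.8 CPM in vehicle, 60.3 and 56.0 at day 3 and 66.3 and 44.0 at day 7, Cre-negative first. The label ratio then was −1.55, −0.11 and −0.59 on the log2 scale. Those cells were set aside by their Plvap UMIs, so these ratios are a description. Free RNA of the CD31 libraries held more Plvap in the Cre-positive library in vehicle (581.1 against 493.7 CPM) and at day 3 (566.2 against 465.8), and less at day 7 (526.4 against 786.1).

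**Figure D5:**
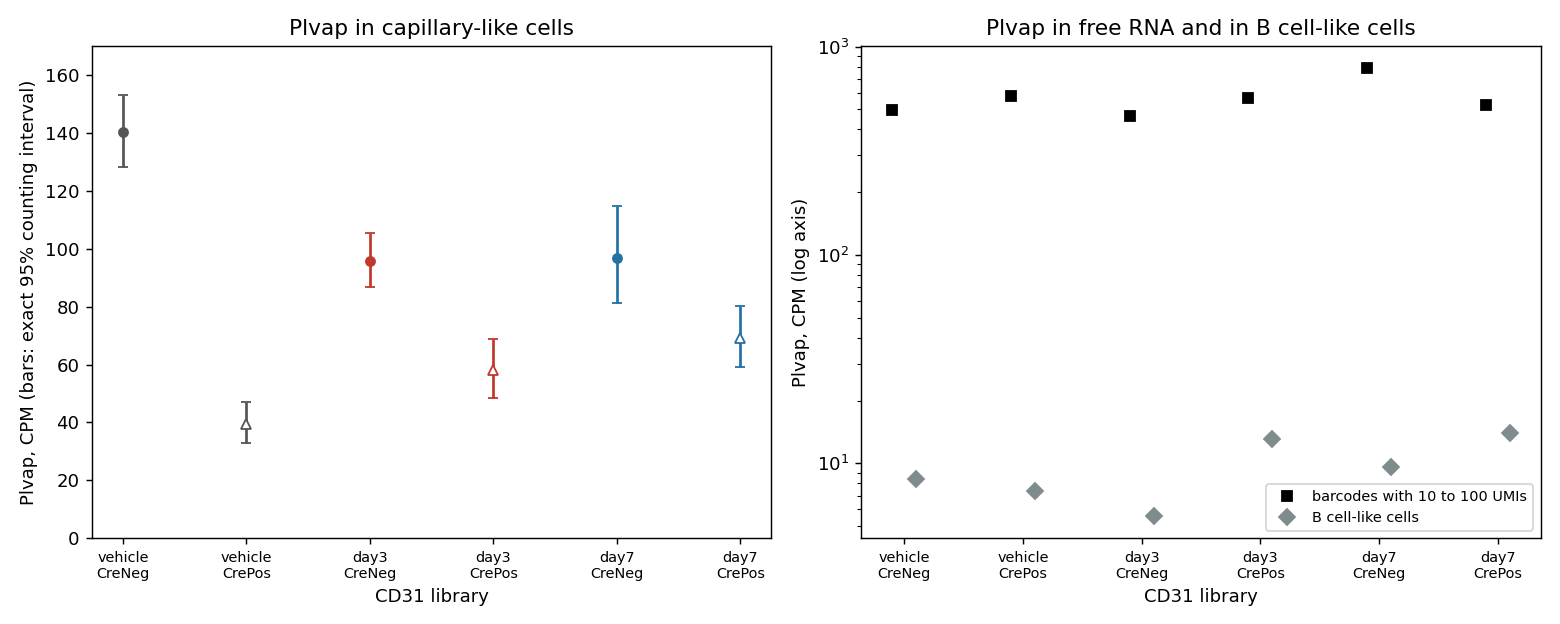
Plvap level of capillary-like cells in each CD31 library, as CPM with exact 95% counting intervals, beside Plvap in free RNA and in B cell-like cells. Each Cre-positive library lies below the Cre-negative one of its time (39.5 against 140.4, 58.1 against 95.7 and 69.0 against 96.9 CPM). Free RNA held more Plvap in the Cre-positive library in vehicle and at day 3 and less at day 7. Its part in the class level was not tested beyond subtracting it.

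The label difference of Plvap in capillary-like cells was set against that of 2 other classes within libraries. Capillary-like minus HEV-like, it was −1.03 (SE 0.24, edgeR adjusted p = 0.300, with 0.0363% of genes called), and capillary-like minus lymphatic-like −1.06 (SE 0.30, adjusted p = 0.595, 0.0582% called). The label response of Plvap was thus not shown to differ between these classes. The difference from HEV-like cells was called when the library day 7 Cre-negative or day 7 Cre-positive was left out. In either case day 7 no longer informs the label term, so these are in effect 1 alternative. For the day 3 and day 7 responses, 0 of 5 members differed between capillary-like and HEV-like cells (0.59% and 0.0181% of genes called) or between capillary-like and lymphatic-like cells (0.108% and 0.0333%). Venous-like cells were not part of these comparisons. They also held less Plvap in the Cre-positive library at each of the 3 times (log2 ratios −0.57 to −0.03), with counting intervals across 0 in vehicle and at day 3.

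In HEV-like cells 0 of 5 members were called for the label (0.0447% of genes called), at day 3 (1.18%) or at day 7 (0%). Cavin2 was higher in the Cre-positive library at each of the 3 times there (68.1 against 62.8, 93.6 against 67.8 and 83.4 against 42.1 CPM), with a fitted difference of 0.49 (SE 0.15, edgeR adjusted p = 0.719). Cav1 was also higher at each time, by 0.22 to 0.38 on the log2 scale (fitted 0.28, SE 0.12, edgeR adjusted p = 1.00). The HEV panel of these cells was lower in the Cre-positive library at each time (32040 against 36175, 20717 against 34652 and 23107 against 93323 CPM), and its part in these differences was not tested. Free RNA of these libraries held 117.8 to 351.1 CPM of Cavin2, above every HEV-like level. That is the level within free RNA, not its part in a cell, and B cell-like cells of these libraries held 5.13 CPM of Cavin2. Free RNA held more Cavin2 in the Cre-positive library at day 7 (351.1 against 222.7 CPM) and less in vehicle and at day 3. The part of free RNA in the HEV-like levels was not tested. In capillary-like cells Cavin2 was likewise higher in the Cre-positive library at each time, by 0.07 to 0.43 on the log2 scale. Plvap in HEV-like cells was steady, with within-time label ratios of −0.04 to 0.14. Abcb1a, of the barrier list, fell in HEV-like cells at day 3 (−0.77, SE 0.14, edgeR adjusted p = 0.0459; without doublet removal 0 genes were called there), the one listed gene called in a response outside arterial-like cells.

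Among the remaining comparisons, in capillary-like cells 0 of 5 members were called at day 3 (0.149% of genes called) or day 7 (0.0374%). Cavin2 had the lowest p there at day 3, with 1570 and 2119 CPM in vehicle and 2260 and 2369 at day 3 (fitted 0.37, SE 0.15, edgeR adjusted p = 0.541). In lymphatic-like cells 0 of 5 were called for the label (0.00775%), day 3 (0%) or day 7 (0%), and fitted member differences ran from −0.37 to 0.20. Venous-like cells, with 20 to 66 cells per library, gave 0 of 5 for the label (0%), day 3 (0.67%) and day 7 (0.0406%), with differences of −0.28 to 0.25. In the sum of all blood endothelial cells 0 of 6 were called (0.00685%, 0% and 0%). At an unadjusted edgeR p under 0.05, the members passing were 2 for the label in HEV-like cells (Cavin2 and Cav1; 4.56% of all genes passed), 1 for the label (Plvap; 4.00%) and 1 at day 3 (Cavin2; 8.31%) in capillary-like cells, and 0 in lymphatic-like, venous-like and all blood endothelial cells. DESeq2 called 0 members in any class for any of the 3 contrasts.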

How the data were processed

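Per the labels, immune cells of enzyme-treated lymph nodes were taken out by CD45 microbeads, both fractions were sorted, and a 10x Genomics 3-prime kit was used. The deposited matrices hold UMI counts for every barcode, made by the authors with Cell Ranger 7.0.1 on mm10 per the submitters' processing notes, while the file headers name an earlier version. The handling of strand is not given in the sources used here.

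A barcode was a cell from 1000 UMIs and 500 genes upward, if mitochondrial UMIs were no more than 10%. Scrublet scores (scanpy 1.11.5) removed the top 0.8% per 1000 cells, since its automatic calls were 0, 2 and 3 in 3 libraries. This removed 4.78% to 9.31% of cells. The cells of each fraction were clustered (Leiden, resolution 1, leidenalg 0.10.2) without members or listed genes and named from marker panels. Class sums per library were tested with edgeR 4.0.16 (R 4.3.3): class levels over 30 sums with library as a block, and responses with additive label and treatment. Genes were filtered by edgeR's default, and adjusted p under 0.05 was called. The SE given for an edgeR fit is the size of its log2 difference divided by the square root of its quasi-likelihood F statistic. It was not estimated separately, so intervals and bars of 2 SE are approximate. DESeq2 1.42.0 and other scalings, filters, clusterings and left-out libraries were alternatives. Named beside the members are their 3 nearest genes by r (mean of at least 20 CPM) and at most 3 called genes per list and comparison by adjusted p, with further members of a list given for their level. A gene that this rule names is not reported here. The members, lists and tests were chosen with earlier results of these data known.

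The fits were tested on simulated data. Total counts per library set the precision of counting, while p-values of the fits measure the spread between libraries. Exact Poisson and Clopper-Pearson 95% intervals and limits of 3 counts at 0 cover counting error only.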

Additional observations from a re-analysis of the deposited data

How the results depend on the processing

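Labels were compared within a time, day 3 and day 7 with vehicle within a label, and classes within a library. No other pairing of libraries was run, since each combination of label, treatment and fraction is 1 library. Differences of capillary-like cells from the other 4 classes kept direction and call under every alternative run, but not size: for Plvap they ran from −6.18 (free RNA subtracted) to −3.41 (no doublet removal) against HEV-like and from −4.35 to −1.88 against lymphatic-like cells. With free RNA subtracted they were −6.20 against venous-like and −4.70 against arterial-like cells, with ends of −4.26 (resolution 1.5) and −2.92 (without day 3). The capillary label difference of Plvap ran from −3.28 to −0.58 under the same settings. The clusterings with members kept among the variable genes and without doublet removal had no separate venous cluster and gave no venous values. Of HEV minus venous, Cav2 turned positive with no filter (0.033), with free RNA subtracted (0.045), at resolution 1.5 (0.024) and without day 3 Cre-positive (0.061), day 3 Cre-negative (0.037), day 7 Cre-negative (0.018) or day 3 (0.13). It ran from −0.11 to 0.13 with a time left out and from −0.12 to 0.061 with 1 library left out, and reached −0.24 by plain CPM. Plvap turned positive without day 3 (0.0019). It ran from −0.15 to 0.0019 with a time left out and down to −0.16 with 1 library left out, and reached −0.44 by plain CPM. Cav1, positive in the fit (0.21), turned negative by plain CPM in the sign-flip test (−0.13).

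Members called for arterial day 3 were 1, but 0 with DESeq2, without doublet removal or with free RNA subtracted, 2 with no filter, with members kept for clustering or at resolution 1.5, and 0 to 5 with libraries left out. The 5 came without vehicle Cre-negative, where 3 were called at day 7. The capillary label count was 0, but 1 with no filter, in cluster 1 alone or from 2000 UMIs, and 0 to 1 with libraries left out. The capillary minus HEV label difference gave 1 with no filter and 0 to 1 with libraries left out, and capillary minus lymphatic 1 in cluster 1 alone. Subtracting free RNA moved the capillary Plvap label ratio from −0.72 to −5.19 at day 3 and from −0.49 to −0.15 at day 7. The −5.19 rests on the few Plvap UMIs left in day 3 Cre-positive. In vehicle no Plvap was left in the Cre-positive library, so no ratio could be formed. Median B cell-like shares thinned from 2.74% to 0.816% (Plvap) and 1.31% to 0.349% (Cav1).

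Counts over all genes moved more: 491 called for arterial day 3 (0 to 1310), 9 for capillary label (3 to 144), 132 for HEV day 3 (0 to 1246), 16 for capillary day 3 (2 to 295) and 33 for venous day 3 (14 to 252). A change in the number of members called under a setting can therefore not be told from a change over all genes. Alternatives added after seeing the data were cluster 1 or 8 alone, the lymphatic-like class without its Madcam1-led cluster, equal arterial weights and capillary-like cells without 5 or more Plvap UMIs.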
